A study of Mus musculus with 3 samples.

Results

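Arterial endothelial cells line the vessels that carry blood into bone. In the metaphysis, the zone of long bone below the growth plate, 156 of 2096 endothelial cells met a rule on arterial genes. The 2 metaphyseal libraries gave 90 and 66 of these cells. The rule took cells with at least 2 of the endothelial genes *Pecam1*, *Cdh5*, *Kdr*, *Tie1* and *Egfl7*. It then counted how many of 5 arterial genes (*Gja4*, *Gja5*, *Sema3g*, *Egfl8*, *Edn1*), 5 capillary genes (*Aplnr*, *Ramp3*, *Piezo2*, *Apln*, *Ednrb*) and 5 sinusoidal genes (*Stab2*, *Mrc1*, *Selp*, *Flt4*, *Cd36*) had a UMI in each cell. A UMI, or unique molecular identifier, tags a captured RNA molecule so that PCR copies are counted once. Arterial cells had at least 2 arterial genes, more arterial than capillary genes, more arterial than sinusoidal genes, and fewer than 5 UMIs of the proliferation genes *Top2a*, *Mki67*, *Birc5*, *Cdk1* and *Ccnb2*. Capillary and sinusoidal cells, named here after the gene set that led in them, were picked in the same way and serve as the comparison.

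Droplet scRNA-seq was run on long bone of untreated C57BL/6 mice at postnatal week 3. Replicates 1 and 2 are libraries of metaphyseal cells from male mice, depleted of haematopoietic cells with antibodies against lineage markers, CD45 and CD117 on magnetic columns. The *Pdgfra-GFP* library holds GFP+ cells sorted from males that were heterozygous for a *Pdgfra-H2B-GFP* knock-in, in which a nuclear GFP is expressed from the *Pdgfra* locus. The study places these cells in the metaphysis in one passage and in the metaphysis with the epiphysis, the end of the bone beyond the growth plate, in another. The libraries held 25243314, 22082735 and 91747759 UMIs. Nothing in the labels says whether the metaphyseal replicates come from separate animals. The p-values therefore measure only how far differences between classes vary from library to library, and this variation may be technical.

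Arterial identity is set early in vessel development, when VEGF and blood flow raise Notch signalling in endothelial cells. Notch ligands such as DLL4 and JAG1 on one cell bind Notch receptors on the next, and the released receptor fragment joins the DNA-binding protein RBPJ to switch on *Hey* and *Hes* genes. SOX17, EFNB2 and the gap junction proteins GJA4 and GJA5 are hallmarks of arterial endothelium, whereas the nuclear receptor NR2F2 marks veins. In bone, arteries feed type H capillaries near the growth plate, and blood drains through the wide sinusoids of the marrow.

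Promoters are shown for 4 genes on which the description below turns: *Bmx* and *Pcsk5*, which were among the genes with the largest difference from both other classes, the rule gene *Gja5*, and the Notch ligand gene *Dll4*. They are RefSeq sequences of build GRCm38.p6, from 250 bases before to 50 bases after the gene start, read 5′ to 3′ on the strand of the gene. Capitals mark the letters TGGGAA, the core of the motif bound by RBPJ, searched on both strands.
Bmx (chrX:164258144-164258443, minus strand): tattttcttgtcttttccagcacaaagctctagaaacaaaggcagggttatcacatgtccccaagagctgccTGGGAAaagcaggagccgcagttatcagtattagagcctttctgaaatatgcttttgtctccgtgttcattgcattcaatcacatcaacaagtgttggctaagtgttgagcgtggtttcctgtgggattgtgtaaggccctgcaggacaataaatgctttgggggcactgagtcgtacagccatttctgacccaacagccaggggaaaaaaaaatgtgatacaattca
Pcsk5 (chr19:17837583-17837882, minus strand): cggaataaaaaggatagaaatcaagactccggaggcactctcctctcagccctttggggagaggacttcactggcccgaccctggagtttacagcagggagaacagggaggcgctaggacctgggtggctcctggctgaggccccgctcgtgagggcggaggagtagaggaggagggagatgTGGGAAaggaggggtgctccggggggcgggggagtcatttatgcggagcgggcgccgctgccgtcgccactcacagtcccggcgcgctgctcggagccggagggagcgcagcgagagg
Gja5 (chr3:97032152-97032451, plus strand): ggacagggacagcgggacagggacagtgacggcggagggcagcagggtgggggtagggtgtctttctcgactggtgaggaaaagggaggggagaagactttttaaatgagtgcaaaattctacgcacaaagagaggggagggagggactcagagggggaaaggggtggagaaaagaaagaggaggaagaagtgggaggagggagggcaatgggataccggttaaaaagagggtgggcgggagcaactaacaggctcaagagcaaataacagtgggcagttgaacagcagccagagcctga
Dll4 (chr2:119325534-119325833, plus strand): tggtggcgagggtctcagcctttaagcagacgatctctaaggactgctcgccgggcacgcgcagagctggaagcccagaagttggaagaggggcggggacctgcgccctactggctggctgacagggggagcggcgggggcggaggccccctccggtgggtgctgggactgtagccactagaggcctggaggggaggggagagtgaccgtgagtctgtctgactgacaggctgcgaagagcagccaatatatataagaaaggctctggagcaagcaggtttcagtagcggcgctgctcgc
The letters occur at 1 place in the *Bmx* window and 1 in the *Pcsk5* window, and not in those of *Gja5* and *Dll4*. They were present in 25.6% of all 32851 promoters of this length, in 7 of 19 promoters of the genes named below as higher in arterial cells (11 of 15 genes matched), and in 4 of 17 promoters of the Notch list (15 of 19 genes matched). A match is a run of letters and not a binding site.

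The rule genes describe how the cells were chosen and carry no test. *Gja4*, which encodes the gap junction protein connexin 37, was at 1479 and 1465 CPM (UMIs of the gene per 1000000 UMIs summed over the class) in arterial cells of replicates 1 and 2, and had a UMI in 95.6% and 98.5% of them. *Gja5*, for connexin 40, was at 305 and 222 CPM, with a UMI in 66.7% and 59.1% of arterial cells. *Sema3g*, a secreted semaphorin, was at 246 and 291 CPM and *Edn1*, the vasoconstrictor endothelin 1, at 235 and 218 CPM. All 5 arterial genes were seen in 25 and 22 cells, 4 in 32 and 15, 3 in 22 and 19, and only 2 in 11 and 10.

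Arterial cells made up 7.68% of 1172 endothelial cells in replicate 1 (exact 95% binomial interval 6.22 to 9.35%) and 7.14% of 924 in replicate 2 (5.57 to 9.0%). Capillary cells made up 34.3% and 33.2%, and sinusoidal cells 40.8% and 42.6%. The arterial share was thus close in both libraries, although depletion, dissociation and the minimum of 1500 genes per cell can each set such a share. Arterial cells had a median of 6791 and 6704.5 UMIs, with a range from 2748 to 33572 in replicate 1 and from 3239 to 23970 in replicate 2. Capillary cells had medians of 6165 and 6417 UMIs, and sinusoidal cells 5604.5 and 5917.5. Their summed UMIs, on which the comparisons rest, came to 692169 and 477271. No barcode of a kept cell was shared between the metaphyseal libraries, and each shared 7 with the *Pdgfra-GFP* library. Barcodes with at most 100 UMIs, which hold mostly free RNA, carried 8.51% and 9.92% of all UMIs.

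A few of the arterial barcodes also carried transcripts of other cell types. In replicate 1, a barcode of 33572 UMIs had 19.1% of them from stromal and osteoblast genes, and a second of 9407 UMIs had 1.79%. In replicate 2, 3 barcodes of 9568, 9611 and 23970 UMIs had 32.8%, 29.3% and 19.3% from haematopoietic genes. Scrublet, a doublet caller, called 1 of these 5. *Col1a1*, the bone collagen gene, was therefore at 5582 CPM in replicate 1 and 122 in replicate 2, and *Hbb-bs*, a haemoglobin gene, at 53.5 and 13041 CPM. These 5 barcodes with at least 1% of their UMIs from another cell type were kept under the rule, and counts are also given without such barcodes in all classes where a list's count moved by 1.5 times or more or from 0.

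The label was compared with 25 arterial genes outside the rule. This list was chosen with earlier results of these data known, so it is no independent check. The summed level of these genes was 14856 and 16508 CPM in arterial cells, 3551 and 3244 CPM in capillary cells, and 3144 and 2863 CPM in sinusoidal cells. *Tm4sf1* was the most abundant, at 4249 and 3983 CPM in arterial cells. Unassigned endothelial cells held the list at 6120 and 8300 CPM. Cells with none of the 5 endothelial genes held it at 12883 and 14789 CPM, of which *Cxcl12* made up 8925 and 10213 CPM, so that the summed level set arterial cells apart from the other endothelial classes and not from cells outside the endothelium. Among members, the summed level was 9851 CPM in replicate 1 and 15977 CPM in replicate 2 for cells with only 2 rule genes, and 17175 and 17229 CPM for those with all 5. In replicate 1 it was higher with each further rule gene, and in replicate 2 it was not ordered in this way. The 11 A = 2 cells of replicate 1 include the deep barcode with stromal genes, where A is the number of arterial rule genes seen. Just outside the rule, cells with a tie between arterial and another class had 10165 (6 cells) and 10256 CPM (4 cells). Cells with at least 2 arterial genes but more of another class had 8020 (7 cells) and 5508 CPM (10 cells).

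**Figure D1:**
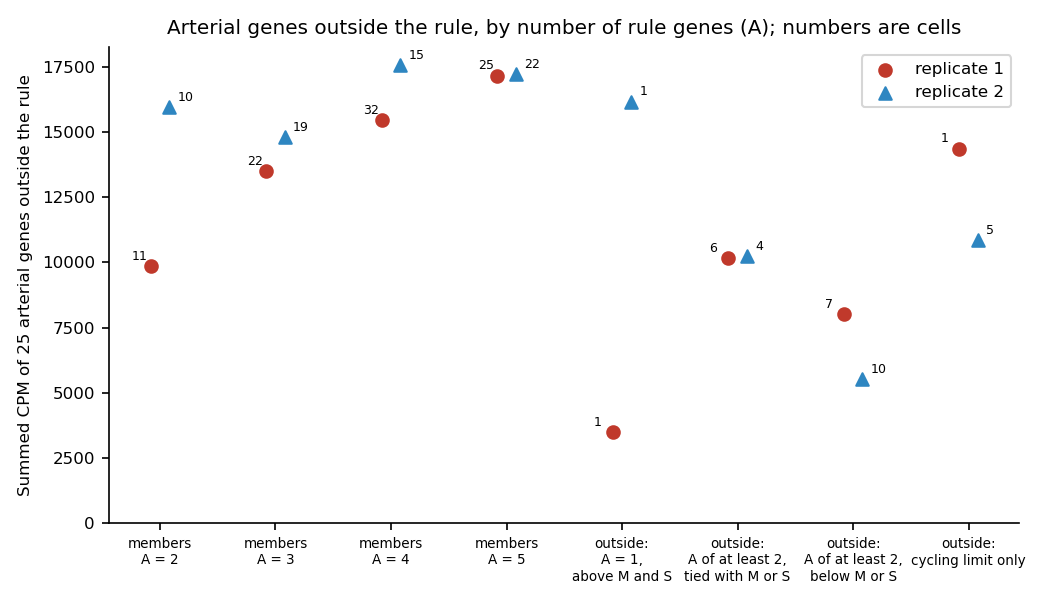
Summed CPM of the 25 arterial genes outside the rule (y axis) for cells grouped by the number of arterial rule genes seen, A (x axis); M and S are the numbers of capillary and sinusoidal rule genes, a point is a group of cells in a library, and the small numbers are cells. Members range from 9851 to 17573 CPM, and the groups of 7 and 10 cells with more genes of another class lie at 8020 and 5508 CPM.

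When each cell was placed among its 20 nearest neighbours by all variable genes except the rule genes, 80.7% and 84.8% of the neighbours of arterial cells were arterial, against 7.60% and 7.04% of all the cells compared. Capillary cells made up 9.33% and 8.48% of these neighbours and sinusoidal cells 1.56% and 1.36%. Arterial cells thus lay mostly among each other. In replicate 1, 16 of 90 arterial cells had under 50% of their neighbours in the class, and in replicate 2, 5 of 66.

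Counts of UMIs were summed per library and class and tested over all genes at once by edgeR's quasi-likelihood test. These classes come from the rule, so p-values take them as given, and the 25 rule genes are not among the calls. Of 11039 genes, 978 (8.86%) were higher and 838 (7.59%) lower in arterial than in capillary cells at an adjusted p under 0.05. Against sinusoidal cells, 1513 (13.7%) were higher and 1504 (13.6%) lower. Higher in both comparisons were 745 genes (6.75%) and lower in both 583 (5.28%), but both comparisons use the same arterial sums. Without mixed barcodes the numbers of genes called were 2328 and 3548, against 1816 and 3017 with them. In that fit p-values were far smaller. The cause of this, and its part in calls gained without mixed barcodes here and below, was not tested.

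The genes with the largest rise over both classes include signalling molecules, a matrix gene and genes best known from muscle and nerve cells. *Nebl* (chr2:17343909-17731464) encodes nebulette, an actin-binding protein. It was at 114 and 119 CPM in arterial cells, 0 and 1.98 CPM in capillary cells and 0 in both sinusoidal sums. Its 136 UMIs were 134-fold higher than in capillary cells (counting interval 51.1 to 498) and at least 209-fold higher than in sinusoidal cells, where 0 UMIs were set to a floor of 3 over the group. The capillary UMIs of *Nebl* were all in replicate 2, where its log2 fold change over capillary cells was 5.95. Against capillary cells the call was lost with DESeq2, with an adjusted p (edgeR or DESeq2) from 1.69e-76 to 0.226 over 15 alternatives and log2 fold changes from 6.19 to 9.04. The smallest of these p-values is from the edgeR fit without mixed barcodes, where p-values were far smaller, against 1.48e-05 at the reported setting. *St8sia6*, for a sialyltransferase, lost it in the same way. *Stmn2* (chr3:8509360-8561606), for a stathmin that destabilises microtubules and is best known from neurons, was at 653 and 652 CPM in arterial, 17.1 and 17.3 CPM in capillary, and 1.05 and 0.395 CPM in sinusoidal cells. The log2 fold change was 5.31 ± 0.14 (SE) over capillary and 9.71 ± 0.20 over sinusoidal cells (edgeR quasi-likelihood test, adjusted p = 1.72e-08 and 1.81e-09), the latter 9.24 in replicate 1 and 10.50 in replicate 2. The arterial sums of both genes lay above those of the other classes in each library, which the choice of named genes requires.

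*Bmx* (chrX:164192842-164258193) encodes a tyrosine kinase of the TEC family known from arterial endothelium. It was at 83.8 and 90.1 CPM in arterial cells, 0.388 and 0.989 CPM in capillary cells, and 0.697 and 1.58 CPM in sinusoidal cells. *Pcsk5* (chr19:17432319-17837632), a proprotein convertase that cleaves precursors of secreted proteins, was at 146 and 153 CPM, against 1.55 and 2.47 CPM and 1.74 and 4.74 CPM. Both genes were under 5 CPM in every capillary and sinusoidal sum. For *Pcsk5* the log2 fold change was 6.28 ± 0.31 over capillary and 5.59 ± 0.28 over sinusoidal cells (edgeR, adjusted p = 1.08e-06 and 4.00e-07), and the value over sinusoidal cells was 6.37 in replicate 1 and 5.05 in replicate 2. *Bmx* was 132-fold higher than in capillary cells (44.0 to 653) and 77.7-fold higher than in sinusoidal cells (34.5 to 217), and its log2 fold change over capillary cells was 7.59 and 6.49 by replicate.

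Receptors and secreted factors followed. *Dkk2* (chr3:132085292-132180304), a secreted modulator of Wnt signalling, was at 105 and 157 CPM in arterial cells, 2.33 and 5.44 CPM in capillary cells, and 0 in both sinusoidal sums, at least 228-fold lower. *Cxcr4* (chr1:128588199-128592293), the receptor for the chemokine CXCL12, was at 70.8 and 105 CPM, against 3.49 and 1.48 CPM in capillary and 0.349 and 3.16 CPM in sinusoidal cells. *Met* (chr6:17463800-17573980), the receptor for hepatocyte growth factor, was at 49.1 and 67.0 CPM, 1.55 and 1.98 CPM, and 0 in both. The *Cxcr4* log2 fold change was 4.36 in replicate 1 and 6.16 in replicate 2 over capillary cells, and 7.47 and 5.07 over sinusoidal cells. These receptor genes were seen in every arterial sum and had at most 12 UMIs in either other class. *S100a4* (chr3:90603771-90606045), a calcium-binding protein, was at 293 and 505 CPM, 13.6 and 23.2 CPM, and 1.39 and 4.35 CPM, with a log2 fold change of 4.51 ± 0.13 and 7.16 ± 0.17 (edgeR, adjusted p = 4.46e-08 and 5.30e-09). The other 7 named genes were *St8sia6*, the carbonic anhydrase gene *Car7*, the solute carrier gene *Slc45a4*, the laminin gene *Lama3*, the phosphatase gene *Ptprr*, the syntenin gene *Sdcbp2* and the lincRNA *Gm35167*. Their arterial levels ran from 54.9 CPM in *Gm35167* to 174 CPM in *Car7*.

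**Figure D2:**
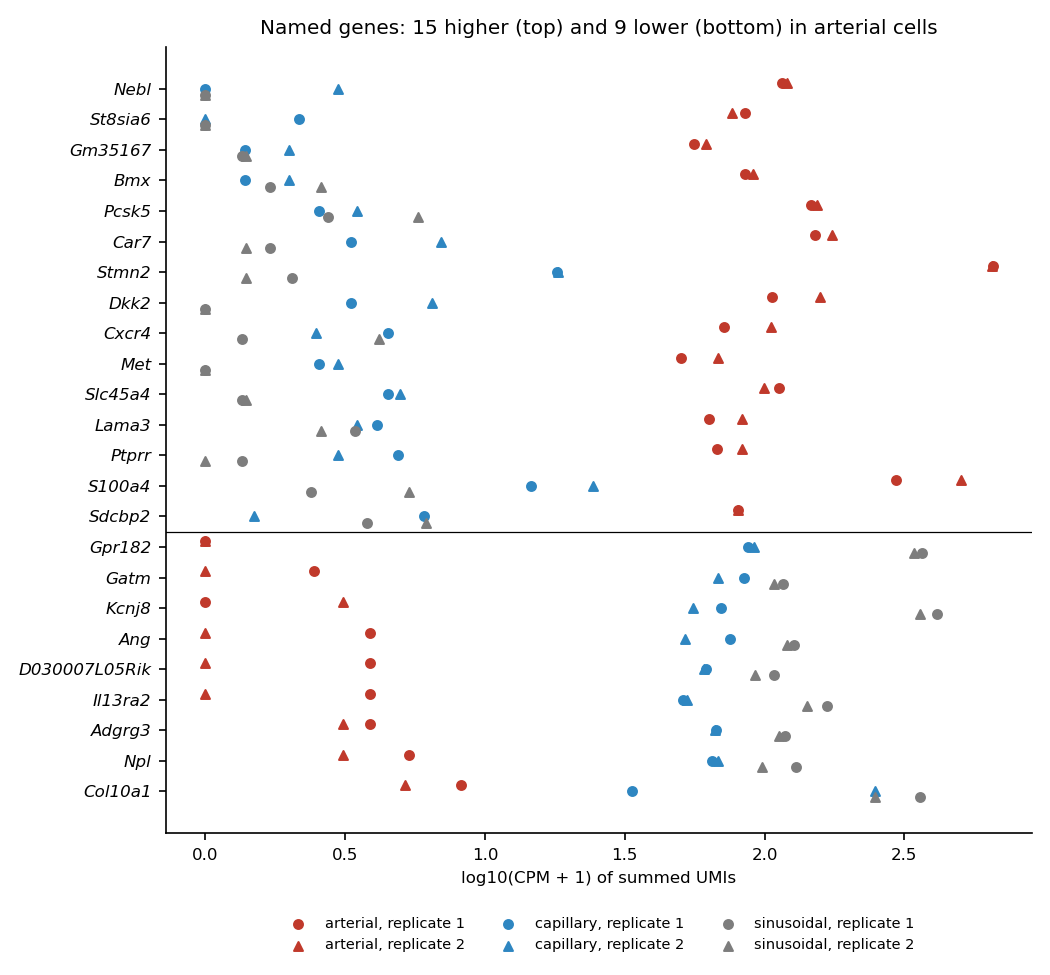
log10(CPM + 1) of summed UMIs (x axis) for the 15 genes named as higher and 9 of the 10 named as lower in arterial cells (y axis), with a point for each class and replicate. In the upper block the arterial points lie to the right of all others, with *Stmn2* at 653 and 652 CPM. In the lower block they lie to the left, with *Gpr182* at 0. The choice of these genes requires this order within each library.

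The genes with the largest fall were mostly genes of sinusoidal cells that were also present in capillary cells. *Gpr182* (chr10:127747276-127751732), a chemokine-binding receptor of sinusoidal endothelium, had 0 UMIs in the arterial sums, 86.5 and 90.5 CPM in capillary cells and 364 and 342 CPM in sinusoidal cells. It was at least 34.4-fold higher in capillary and at least 138-fold higher in sinusoidal cells. *Kcnj8*, for a subunit of ATP-sensitive potassium channels, had 1 UMI in arterial cells and was at 69.1 and 54.4 CPM in capillary and 412 and 359 CPM in sinusoidal cells. *Il13ra2*, for a decoy receptor of interleukin 13, had 2 UMIs in arterial cells and was at 50.1 and 51.9 CPM and at 166 and 141 CPM in the other classes. *Gatm*, which makes the precursor of creatine, *Ang*, for angiogenin, the adhesion receptor gene *Adgrg3*, *Npl*, for a lyase of sialic acid, and the lincRNA *D030007L05Rik* each had at most 4 UMIs in arterial cells. *Col10a1*, the collagen of hypertrophic chondrocytes, was at 7.22 and 4.19 CPM in arterial cells, 32.6 and 248 CPM in capillary and 359 and 248 CPM in sinusoidal cells. Near-empty barcodes held it at 1093 and 1410 CPM, and the part of free RNA in this difference was not tested. Without mixed barcodes its log2 fold change was -1.10 and -1.30 and it passed neither test.

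Of the arterial genes outside the rule, a list chosen with earlier results of these data known, 23 of 25 passed the filter on low counts. 22 of 23 were higher than in capillary cells, where the background was 8.86%, and 22 were higher and 1 lower than in sinusoidal cells, where it was 13.7% and 13.6%. The median log2 fold change was 2.39 and 3.40, against -0.02 and -0.03 over all genes tested. *Tm4sf1*, a membrane protein gene of endothelium, was at 4249 and 3983 CPM in arterial, 832 and 727 CPM in capillary, and 887 and 809 CPM in sinusoidal cells. *Igfbp3*, which binds insulin-like growth factors, was at 1328 and 1486 CPM, 223 and 199 CPM, and 32.8 and 43.1 CPM. The exception was *Mgp*, an inhibitor of calcification, at 118 and 195 CPM in arterial and 333 and 269 CPM in sinusoidal cells, and the direction turned without mixed barcodes, to a log2 fold change of 2.47. Without these barcodes, in the fit with far smaller p-values, 23 of 23 genes were higher in each comparison. *Hey2* and *Gkn3* were too low to be tested.

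Genes of the Notch pathway went in both directions. In the list of 19, 15 were tested, and 7 were higher and 2 lower than in capillary cells (8.86% and 7.59% of all genes), and 7 and 2 than in sinusoidal cells (13.7% and 13.6%), with a median log2 fold change of 0.32 and 0.19. The 2 of 15 lower than in sinusoidal cells are a share near that of all genes, and without mixed barcodes there were 4. Among the ligands, 3 were higher in both comparisons. *Dll4* was at 205 CPM in both arterial sums, 57.0 and 52.4 CPM in capillary cells, and 64.1 and 59.3 CPM in sinusoidal cells, a log2 fold change of 1.97 ± 0.12 and 1.77 ± 0.11. *Jag2* was at 150 and 178 CPM, 36.1 and 42.0 CPM, and 6.27 and 5.14 CPM. *Jag1* was at 92.5 and 155 CPM, 27.5 and 25.7 CPM, and 40.1 and 50.6 CPM. *Dll1* alone among the 4 ligands tested fell, from 65.6 and 75.6 CPM in capillary to 20.2 and 27.2 CPM in arterial cells, and did not pass the test against sinusoidal cells.

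Of the 3 receptor genes tested, *Notch1* and *Notch4* were higher in both comparisons. *Notch2* was at 4.33 and 0 CPM in arterial, 1.94 and 3.46 CPM in capillary and 8.02 and 11.5 CPM in sinusoidal cells, and passed neither test. It was lower than in sinusoidal cells without mixed barcodes, in the fit with far smaller p-values. *Notch4* was at 205 and 191 CPM in arterial, 88.5 and 85.5 CPM in capillary and 65.5 and 54.5 CPM in sinusoidal cells. *Notch1* was at 240 and 264 CPM, 145 and 135 CPM, and 204 and 197 CPM, so that its difference from sinusoidal cells was small, at a log2 fold change of 0.37 ± 0.11. That call was lost under some alternatives, with an adjusted p (edgeR or DESeq2) from 0.00299 to 0.211 over 15 of them. Among targets, *Hey1* was at 131 and 149 CPM, 10.5 and 8.90 CPM, and 4.18 and 1.19 CPM, and *Nrarp*, a feedback inhibitor, at 178 and 117 CPM, 85.0 and 64.8 CPM, and 69.4 and 46.2 CPM. *Hes1* went the other way, at 282 and 331 CPM in arterial, 363 and 443 CPM in capillary and 643 and 673 CPM in sinusoidal cells. Against capillary cells its call also rested on the setting, with an adjusted p (edgeR or DESeq2) from 0.00541 to 0.290. *Hey1* and *Hes1*, both known as Notch targets, thus differed in direction, with log2 fold changes over sinusoidal cells of 5.66 ± 0.32 (4.99 in replicate 1 and 6.94 in replicate 2) and -1.06 ± 0.10. *Rbpj* and the glycosyltransferase gene *Mfng*, whose product tunes ligand choice, did not pass either test. *Lfng*, for a related glycosyltransferase, was lower than in sinusoidal cells, at 27.4 and 48.2 CPM against 78.1 and 88.1 CPM.

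Guidance genes, which steer vessels as well as axons, were also split. Of 20 tested, 8 were higher and 6 lower than in capillary cells (8.86% and 7.59% of all genes), and 8 and 7 than in sinusoidal cells (13.7% and 13.6%). *Unc5b*, a netrin receptor, was at 303 and 331 CPM in arterial, 19.8 and 32.6 CPM in capillary, and 6.62 and 7.90 CPM in sinusoidal cells. *Efnb2*, the arterial ephrin, was at 407 and 482 CPM, 122 and 139 CPM, and 29.6 and 32.0 CPM. The venous ephrin receptor gene *Ephb4* passed neither test, at 149 and 119 CPM, 175 and 189 CPM, and 170 and 167 CPM. *Plxnd1*, a semaphorin receptor, was lower at 218 and 230 CPM, against 653 and 666 CPM and 583 and 618 CPM. *Nrp1* and *Nrp2*, the coreceptors for VEGF and semaphorins, moved apart. *Nrp1* was higher, at 771 and 721 CPM against 478 and 496 CPM in capillary cells, and *Nrp2* lower, at 91.0 and 46.1 CPM against 375 and 365 CPM.

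Transcription factor genes of vessel identity were 9 higher and 7 lower of 24 tested against capillary cells (8.86% and 7.59% of all genes), and 8 and 7 against sinusoidal cells (13.7% and 13.6%), with medians of 0.05 and -0.16. *Mecom*, for a zinc finger factor, was at 377 and 419 CPM in arterial, 17.8 and 25.2 CPM in capillary, and 4.18 and 6.72 CPM in sinusoidal cells, with log2 fold changes of 4.30 ± 0.13 and 6.24 ± 0.16. *Sox17*, the arterial SOX factor, was at 569 and 518 CPM, 110 and 92.9 CPM, and 47.1 and 59.7 CPM. Its relatives *Sox7* and *Sox18* were higher by less, with log2 fold changes over capillary cells of 0.94 ± 0.13 and 0.56 ± 0.09. *Nr2f2*, the factor of venous fate, was at 36.1 and 27.2 CPM in arterial cells, 220 and 242 CPM in capillary cells and 482 and 478 CPM in sinusoidal cells. *Maf* was at 14.4 and 14.7 CPM, 141 and 169 CPM, and 215 and 228 CPM. *Erg* and *Fli1*, for ETS factors common to all endothelium, passed neither test, with log2 fold changes over capillary cells of -0.12 ± 0.14 and 0.01 ± 0.13. *Erg* was lower than in sinusoidal cells without mixed barcodes and under some other alternatives, with log2 fold changes from -1.50 to -0.34 over 15 alternatives and an adjusted p (edgeR or DESeq2) from 0.00564 to 0.422. *Fli1* was lower than in sinusoidal cells with at least 3 arterial genes.

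Of 27 elastic fibre and basement membrane genes tested, 13 were higher and 4 lower than in capillary cells (8.86% and 7.59% of all genes), and 19 and 4 than in sinusoidal cells (13.7% and 13.6%), with medians of 0.50 and 1.20. Without mixed barcodes, in the fit with far smaller p-values, 15 were higher and 6 lower than in capillary cells. *Fbln5*, which helps assemble elastic fibres, was at 572 and 585 CPM in arterial, 30.7 and 23.7 CPM in capillary, and 62.0 and 50.6 CPM in sinusoidal cells. *Eln*, for elastin, was at 124 and 212 CPM, 27.9 and 30.7 CPM, and 58.2 and 66.4 CPM. *Ltbp4*, which binds latent TGF-beta in the matrix, was at 691 and 890 CPM, 174 and 186 CPM, and 53.7 and 60.1 CPM. *Emilin1*, another elastic fibre gene, was lower at 49.1 and 52.4 CPM, against 217 and 211 CPM and 143 and 148 CPM. The collagen IV gene *Col4a1* differed little from capillary cells, with a log2 fold change of 0.25 ± 0.07, and by 1.08 ± 0.07 from sinusoidal cells. The first call was lost under some alternatives, with an adjusted p (edgeR or DESeq2) from 2.23e-06 to 0.740. *Col18a1*, for a basement membrane collagen, was at 1409 and 1389 CPM, 387 and 433 CPM, and 48.4 and 51.0 CPM.

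Among junction genes other than the connexins of the rule, 4 were higher and 2 lower of 15 tested against capillary cells (8.86% and 7.59% of all genes), and 10 and 1 against sinusoidal cells (13.7% and 13.6%). Without mixed barcodes, 7 were higher and 1 lower than in capillary cells. *Cldn5*, for the tight junction protein claudin 5, was at 2408 and 1586 CPM in arterial cells, 1512 and 1393 CPM in capillary cells, and 1235 and 1198 CPM in sinusoidal cells. *Cdh13*, for T-cadherin, was at 277 and 306 CPM, 86.5 and 107 CPM, and 5.23 and 8.30 CPM. *Gja1*, for connexin 43, passed neither test.

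Genes of flow sensing and vessel tone were 9 higher and 4 lower of 20 tested against capillary cells (8.86% and 7.59% of all genes), and 9 and 6 against sinusoidal cells (13.7% and 13.6%). *Klf2*, a factor induced by shear stress, was at 1562 and 1628 CPM in arterial, 881 and 805 CPM in capillary, and 871 and 671 CPM in sinusoidal cells. *Klf4*, its relative, was higher than in capillary cells at 1.20 ± 0.15 on the log2 scale and did not pass the test against sinusoidal cells, at -0.15 ± 0.14. With cells thinned to 2000 UMIs before the rule, it was 0.50 over capillary cells and lost the call, and -0.93 over sinusoidal cells and passed the test. *Ace*, for the enzyme that makes angiotensin II, was at 76.6 and 85.9 CPM, 5.82 and 6.92 CPM, and 1.05 and 0.395 CPM. *Cav1*, for caveolin 1, was at 858 and 805 CPM, 149 and 147 CPM, and 22.3 and 28.8 CPM. Both genes that follow, with roles in clotting and platelet function, were lower. *Thbd*, for thrombomodulin, was at 86.7 and 85.9 CPM against 256 and 233 CPM and 574 and 584 CPM, and *Ptgs1*, for cyclooxygenase 1, at 11.6 and 4.19 CPM against 138 and 144 CPM and 158 and 184 CPM.

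More growth factor genes were higher than lower. Of 16 genes of the VEGF and angiopoietin list, 8 were higher and 3 lower than in capillary cells (8.86% and 7.59% of all genes), and 9 and 4 than in sinusoidal cells (13.7% and 13.6%). *Vegfc*, a ligand of VEGF receptors, was at 348 and 337 CPM in arterial, 62.9 and 75.6 CPM in capillary, and 22.3 and 16.2 CPM in sinusoidal cells. *Pdgfb*, which draws mural cells to vessels, was at 308 and 344 CPM, 110 and 121 CPM, and 62.4 and 63.2 CPM. The receptor genes *Flt1* and *Tek* were lower than in capillary cells, with log2 fold changes of -0.47 ± 0.07 and -1.52 ± 0.11. In the BMP and TGF-beta list, 11 were higher and 3 lower of 17 tested against capillary cells, and 9 and 4 against sinusoidal cells. *Tgfb2* was at 140 and 163 CPM, 6.21 and 15.8 CPM, and 1.74 and 1.19 CPM, whereas *Tgfb1* was lower at 165 and 193 CPM, against 332 and 364 CPM and 344 and 325 CPM. *Bmp6* was at 86.7 and 73.3 CPM, 7.76 and 1.98 CPM, and 9.41 and 5.53 CPM. The TGF-beta isoforms thus differed in direction.

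Factors of the haematopoietic niche and leukocyte adhesion were 7 higher and 1 lower of 14 tested against capillary cells (8.86% and 7.59% of all genes), and 8 and 4 against sinusoidal cells (13.7% and 13.6%). *Cxcl12*, the ligand of CXCR4, was at 1971 and 2910 CPM in arterial cells, 391 and 191 CPM in capillary cells, and 533 and 377 CPM in sinusoidal cells. Ligand and receptor genes were thus both highest in the arterial class among the 3 classes, with log2 fold changes of 3.22 ± 0.30 and 2.53 ± 0.29 for the ligand. Its rise over capillary cells was 2.38 in replicate 1 and 4.02 in replicate 2, and over sinusoidal cells 1.92 and 3.01. With doublets called by Scrublet removed, *Cxcl12* had log2 fold changes of 4.93 and 3.64, and cells without any of the 5 endothelial genes held it at 8925 and 10213 CPM. *Kitl*, for stem cell factor, was at 380 and 402 CPM, 158 and 139 CPM, and 49.1 and 40.7 CPM. *Vcam1*, a leukocyte adhesion gene, was at 99.7 and 132 CPM, 76.1 and 44.0 CPM, and 1354 and 1277 CPM. Its log2 fold change over capillary cells was 0.44 and 1.67 by replicate, and that call was lost with DESeq2 and with thinning before the rule. *Sele*, for E-selectin, had 0 UMIs in arterial cells, and its call against capillary cells was lost under the same settings.

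Lipid uptake genes were 3 higher and 2 lower of 13 tested against capillary cells (8.86% and 7.59% of all genes), and 4 and 4 against sinusoidal cells (13.7% and 13.6%). Without mixed barcodes, 3 were lower than in capillary cells, *Fabp4* among them. *Tcf15* and *Slc27a3*, for a transcription factor and a fatty acid transport protein, were higher in both comparisons, at 86.7 and 109 CPM and at 83.8 and 94.3 CPM in arterial cells. *Fabp4*, for a fatty acid binding protein, was at 682 and 853 CPM in arterial, 1254 and 816 CPM in capillary, and 11519 and 9736 CPM in sinusoidal cells. Venous genes were 2 higher and 4 lower of 8 against capillary cells, and 1 and 6 against sinusoidal cells, to be read against the same shares. The 1 higher in both was *Vwf*, at 37.6 and 25.1 CPM, against 5.43 and 2.97 CPM and 12.2 and 5.93 CPM. Vwf protein is made by many kinds of endothelium. Pan-endothelial genes outside the rule went either way, with 5 higher and 5 lower of 16 against capillary cells and 8 and 5 against sinusoidal cells. *Emcn*, which is known to be low in arteries, was at 770 and 677 CPM in arterial, 2252 and 2063 CPM in capillary and 1348 and 1293 CPM in sinusoidal cells.

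**Figure D3:**
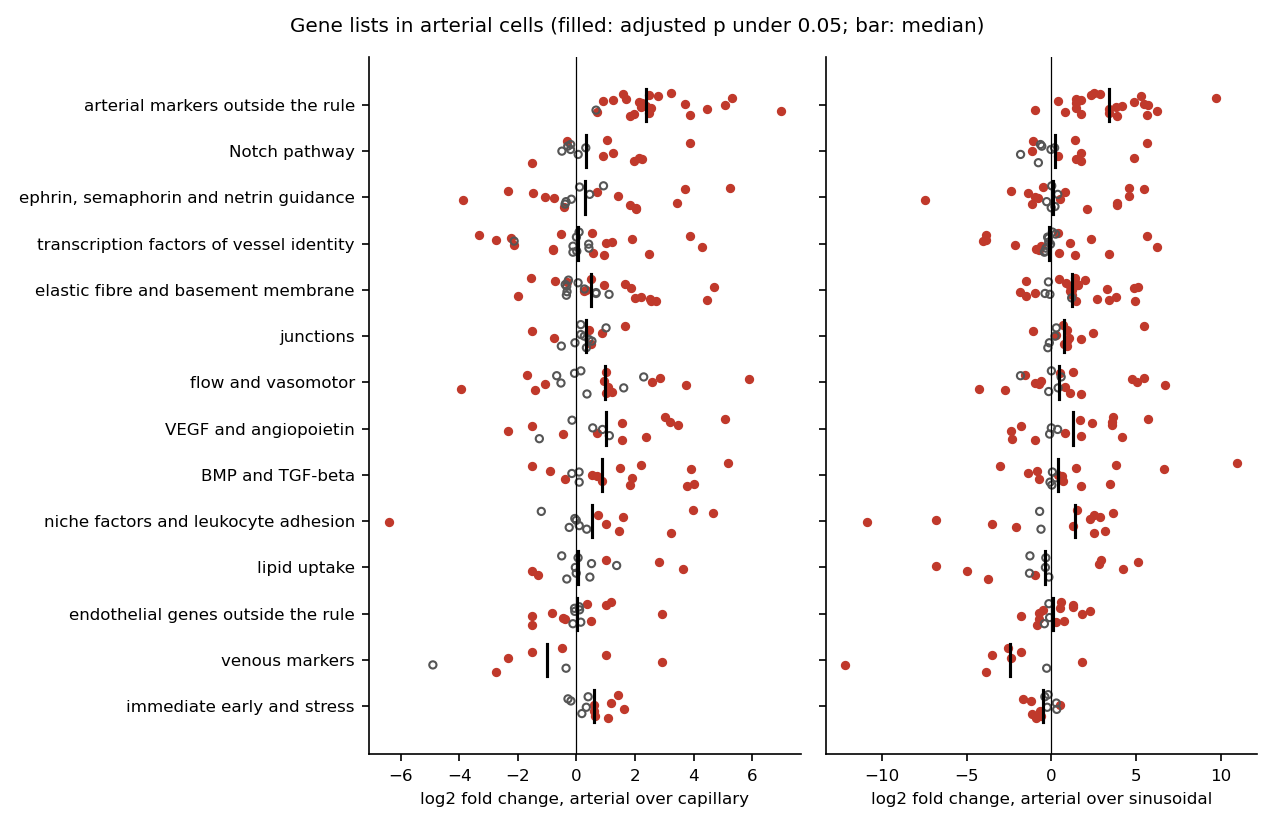
log2 fold change of arterial over capillary (left) and over sinusoidal cells (right, wider scale) for each tested gene of 14 lists (y axis); filled points have an adjusted p under 0.05 by edgeR, bars are medians, and genes with 0 UMIs in a class are drawn at a fitted value that depends on the prior count. The arterial list has medians of 2.39 and 3.40, while medians of the Notch and transcription factor lists lie within 0.32 of 0.

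Markers of other cell types were checked beside these groups, and counts of called genes are again to be read against the shares of all genes, 8.86% higher and 7.59% lower than in capillary cells and 13.7% and 13.6% than in sinusoidal cells. Mural genes summed to 15.9 and 50.3 CPM in arterial cells, with 8 and 3 of 10 at 0, among them *Myh11* of smooth muscle in both, and the most abundant were *Pdgfrb* at 10.1 CPM and *Acta2* at 12.6 CPM. All 5 lymphatic genes were at 0 in both arterial sums, and *Prox1*, the only one tested, was lower than in both other classes without mixed barcodes. The 2 mural genes that passed the test, *Kcnj8* and *Abcc9*, were lower than in both other classes. Defining mural and lymphatic genes were therefore at or near 0. The stromal and osteoblast list summed to 9778 and 478 CPM and none of its 11 tested genes passed the test. The haematopoietic list summed to 147 and 22319 CPM, and 4 of 10 tested genes were higher than in capillary cells, but 0 were higher and 2 lower of 9 without mixed barcodes. The chondrocyte list summed to 5.78 and 33.5 CPM, most of it from *Col2a1*, and 1 of 3 tested genes was lower than in sinusoidal cells, but not without mixed barcodes, where 1 gene was tested.

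Immediate early and stress genes, which can respond to dissociation, were 7 higher and 0 lower of 12 against capillary cells (8.86% and 7.59% of all genes), and 1 higher and 6 lower against sinusoidal cells (13.7% and 13.6%). Without mixed barcodes, in the fit with far smaller p-values, 2 were lower than in capillary cells, and 2 were higher and 8 lower than in sinusoidal cells. *Fos* was at 842 and 886 CPM in arterial, 436 and 434 CPM in capillary, and 1703 and 1631 CPM in sinusoidal cells. The summed level of the list was 3892 and 4438 CPM in arterial, 3200 and 3006 CPM in capillary and 7622 and 7128 CPM in sinusoidal cells. This sum thus lay between both others, but not every gene did. The heat shock gene *Hspa1a* had log2 fold changes from -0.78 to -0.15 over capillary and from -2.06 to -1.15 over sinusoidal cells over 15 alternatives. The part of this response in the flow list, where *Klf2* and *Klf4* are also immediate early genes, was not tested.

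Arterial cells also varied among themselves. Each cell was thinned to 2000 UMIs and genes were ranked by variance over mean, which was 1.09 and 1.08 at the median of 1873 and 1725 genes. Besides ribosomal, mitochondrial and nuclear transcripts, *Mgp*, *Fabp4*, *Vim* and *Tmsb4x* ranked among the 20 most variable genes in both libraries. *Vim*, for an intermediate filament protein, and *Tmsb4x*, for an actin-binding peptide, had a UMI in nearly all thinned cells. *Mgp* had a UMI in only 5.56% and 9.09% of thinned arterial cells, and *Fabp4* in 40.0% and 30.3%, with up to 15 and 34 UMIs in a cell. Cells with a UMI of *Mgp* or of *Fabp4* were thus a minority.

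Pairs of genes that varied together across arterial cells were counted over 878 genes, or 385003 pairs, within each library. Spearman's rho was at least 0.35 in both libraries for 42 pairs, against 464 and 1507 pairs in replicates 1 and 2 alone. It was at most -0.35 in both for 5 pairs, against 213 and 676 pairs in each library alone. The median rho was 0.0044 and 0.0070. These correlations across cells of a library are a description, with no test, and share that library and its thinning. Some of the pairs, described here after the correlations were seen, joined endothelial and basement membrane genes. *Plvap*, for the diaphragm protein of fenestrated endothelium, and *Gpihbp1*, which carries lipoprotein lipase in capillaries, had a rho of 0.65 in replicate 1 and 0.45 in replicate 2. *Col4a1* and *Col4a2*, whose products form collagen IV together, had 0.64 and 0.74, and *Col4a2* and *Plvap* 0.55 and 0.43. *Col4a2* and *Esm1*, a gene of sprouting tip cells, had 0.42 and 0.36. *Esm1* was itself higher in arterial than in capillary cells, with log2 fold changes from 3.31 to 4.21 over 15 alternatives. *Fbln5* had a negative rho with these genes, at -0.36 and -0.45 with *Col15a1* and -0.36 and -0.40 with *Col4a2*. The values were -0.42 and -0.26 with *Plvap*, -0.22 and -0.22 with *Emcn* and -0.42 and -0.08 with *Gpihbp1*, the last near 0 in replicate 2. *Serpinf1* had -0.37 and -0.45 with *Plvap*. *Fbln2*, another elastic fibre gene, did not share this in both libraries, with -0.21 and -0.05 with *Col4a2* and -0.37 and 0.15 with *Hspg2*.

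**Figure D4:**
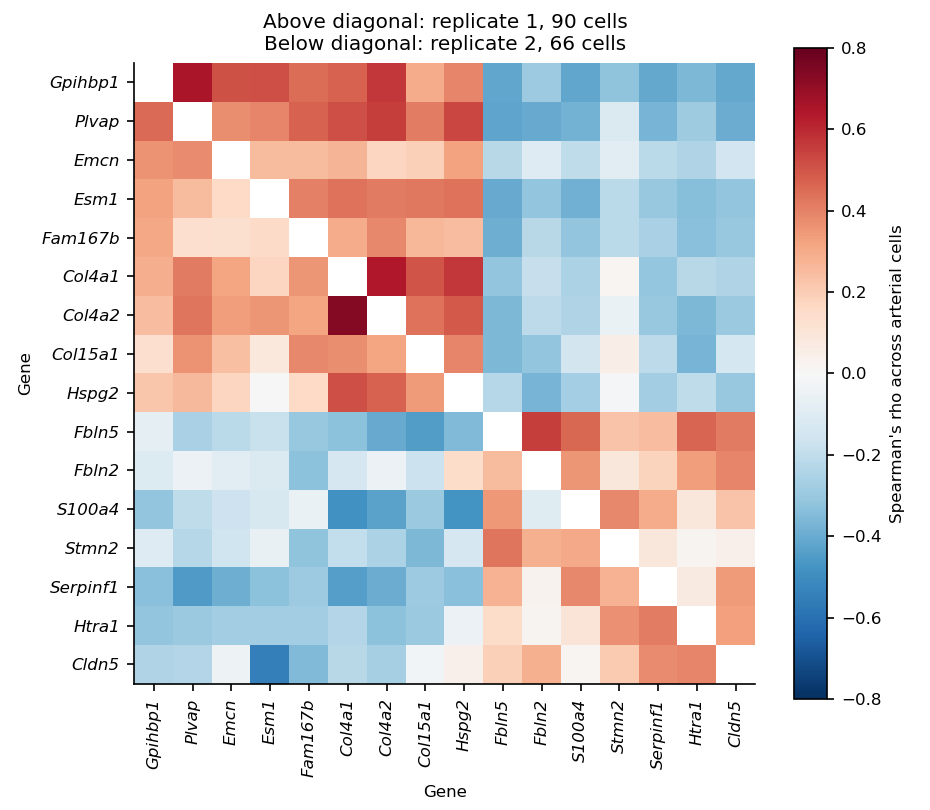
Spearman's rho between 16 genes (both axes) across thinned arterial cells, with 90 cells of replicate 1 above and 66 of replicate 2 below the diagonal; the genes were chosen after the correlations were seen. *Plvap*, *Gpihbp1* and the collagen IV genes form a positive block, weaker in replicate 2 for *Gpihbp1*. Its rho is 0.47 and 0.29 with *Col4a1* and 0.57 and 0.25 with *Col4a2* in replicates 1 and 2. *Fbln5* has a rho of -0.36 and -0.40 with *Col4a2*.

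Members were also grouped by the number of capillary rule genes seen in them. The rule demands more arterial than capillary genes, so these groups are shaped by the choice of members. The genes were counted before thinning, so the groups can also depend on depth. *Plvap* had a mean of 1.05, 2.61 and 4.67 UMIs per thinned cell in replicate 1 for 0, 1 and at least 2 capillary rule genes (39, 36 and 15 cells). In replicate 2 the means were 1.21, 2.88 and 2.62 (34, 24 and 8 cells). *Fbln5* had 2.23, 1.17 and 0.40 in replicate 1 and 1.62, 1.38 and 0.75 in replicate 2. In replicate 2 the *Plvap* mean was thus not higher at 2 or more such genes than at 1. *Fbln2* had 2.54, 1.28 and 0.667 in replicate 1 and 1.26, 1.83 and 0.75 in replicate 2, so that its order in replicate 1 was not seen in replicate 2. *Emcn* had 1.38, 1.28 and 2.87 and then 1.21, 1.79 and 1.38, with no such order in either library. A second set held immediate early and heat shock genes, in which *Fos* and *Hspa1a* had a rho of 0.54 and 0.65 and *Fos* and *Junb* 0.50 and 0.59. *Klf2* and *Klf4* had 0.36 and 0.40.

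The same rule, applied to the *Pdgfra-GFP* library, took no part in the choice of the named genes. With 1 library there is no test. It found 71 arterial cells, and all 15 genes named as higher had their highest level in these cells, with a summed level of 2417 CPM against 82.7 CPM in 60 capillary and 45.8 CPM in 84 sinusoidal cells. Of the 10 genes named as lower, 9 were lowest in them. Of the 25 arterial genes outside the rule, 23 were highest in them, and *Notch1* and *Cxcl12* were not. The levels of arterial cells in a separate library thus had the order seen in the metaphyseal libraries for most of these genes.

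In that library, 71 of 280 endothelial cells were arterial, which is 25.4% (20.4 to 30.9%), against 7.68% and 7.14% in the metaphyseal libraries. The H2B-GFP transcript was at 388 CPM in the arterial cells (177 UMIs, exact 95% Poisson interval 333 to 449), with a UMI in 28 of 71 cells. It was at 24.3 CPM in capillary, 5.73 CPM in sinusoidal and 48.7 CPM in unassigned endothelial cells, and at 97.5 CPM in the 8301 cells without any of the 5 endothelial genes. The *Pdgfra* transcript itself was at 4.38 CPM in the arterial cells (2 UMIs) and at 46.6 CPM in the cells without endothelial genes. In the metaphyseal libraries, which carry no reporter, *Pdgfra* was at 5.78 and 8.38 CPM in arterial cells and H2B-GFP had 0 UMIs. Sorting on GFP, depletion with magnetic columns, depth, mouse line and perhaps bone region differ between these libraries and cannot be told apart.

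**Figure D5:**
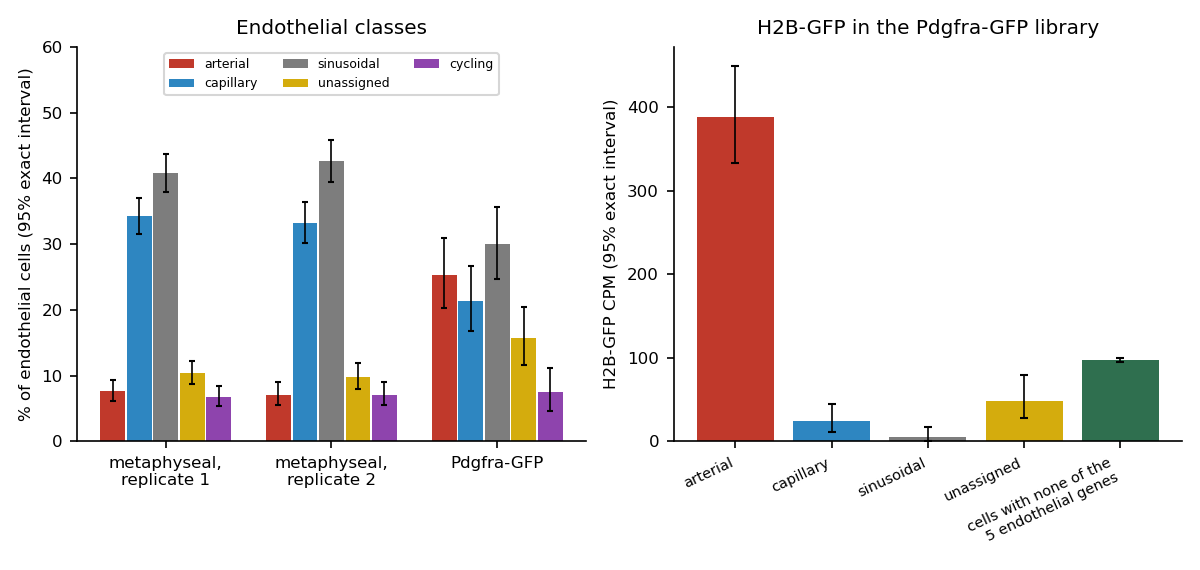
Left, share of endothelial cells in each class (y axis, percent, with exact 95% binomial intervals) in the 3 libraries. Right, H2B-GFP level in the *Pdgfra-GFP* library (y axis, CPM, with exact 95% Poisson intervals), at 388 CPM in arterial cells and 97.5 CPM in cells with none of the 5 endothelial genes.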

How the data were processed

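The authors trimmed reads with fastp 0.20, aligned them with STAR 2.7.3a (STARsolo) to mm10 with Gencode M23 and the H2B-GFP sequence, and deposited unfiltered raw UMI counts of 55422 genes per barcode. Gene positions were taken from Gencode M21 of the same build, GRCm38, and promoters from a RefSeq table. EmptyDrops, which the study ran, was not used here.

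The filters, 1500 genes or more with mitochondrial and ribosomal shares of UMIs up to 15% and 30%, left 2382, 2004 and 9015 barcodes. The members and lists were chosen with earlier results of these data known. UMI counts were summed per library and class (6 sums) and tested with edgeR 4.0.16 in R 4.3.3 (quasi-likelihood test, TMM, filterByExpr, library as a block), with Benjamini-Hochberg adjustment over 11039 genes and a threshold of 0.05. The sums of a library come from the same cell suspension and are therefore paired. As a check, deviations of sums of a library correlated with Pearson's r of -0.006, -0.052 and 0.155 over 4808 genes. In simulated counts of 10973 genes, the arterial against capillary test found 63% of 2-fold and 89% of 4-fold changes, and the test against sinusoidal cells 61% and 87%. Those changes were placed only in genes above a minimum mean count, and all genes were given the same spread. These shares therefore do not apply to genes with low counts.

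Named genes were the 15 higher and 10 lower genes with the largest smaller log2 fold change of both comparisons, past the threshold in both, with the same direction in both libraries and at least 50 CPM in the class or classes where they were higher. Of the lower genes, 1 is not reported here. Genes named otherwise come from lists or were chosen after their values were seen. Intervals of counts, ratios and shares are exact, at the 95% level, and cover counting error only. A count of 0 was set to 3 UMIs for bounds. Thinning drew 2000 UMIs per cell. Neighbours were found in 20 principal components of 2000 variable genes. Scrublet (scanpy 1.11.5) marked doublets, which stayed in. Other alternatives, with DESeq2 1.42.0 among them, are given at the end.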

Additional observations from a re-analysis of the deposited data

Results flagged for a closer look

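Arterial cells made up 25.4% of the 280 endothelial cells of the *Pdgfra-GFP* library, outside the main comparisons, and this share was above the 7.68% and 7.14% of the metaphyseal libraries. The H2B-GFP transcript reached 388 CPM in the arterial cells of that library, on 177 UMIs in 28 of 71 cells, while no UMI of it was seen in the metaphyseal libraries. Both values come from 1 library and were not tested.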

How the results depend on the processing

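The arterial against capillary comparison called 1816 genes and the one against sinusoidal cells 3017. DESeq2 called 1063 and 1779, thinning cells to 2000 UMIs before summing left 1026 and 1639, and thinning before the rule 854 and 1415. Fewer genes were tested after thinning, 8485 and 8069. Under the other settings of the filter, normalization, block and cell limits, the counts stayed within 1.5 times. Without mixed barcodes, chosen after seeing the data, they were 2328 and 3548. In that fit p-values were far smaller, for a cause that was not tested, so these counts are not taken to measure the removal of barcodes alone. The arterial share had a mean of 7.41% and was 6.40% with at least 3 arterial genes, 6.73% without *Edn1*, 7.98% with at least 2000 genes per cell and 6.04% with thinning before the rule. Leaving out each replicate in turn gave a share of 7.14 to 7.68% and arterial neighbours of 80.7 to 84.8%. Gene counts could not be had with a replicate left out, since no degrees of freedom among samples remain.

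The fit with no replicate block called 1781 and 2981 genes, and the pairing changed the call of none of the 25 genes named by rule. *Nebl* and *St8sia6* against capillary cells lost the call with DESeq2, as did *Col10a1* against capillary cells with thinning before the rule. Directions turned for *Mgp* against sinusoidal cells, from -0.93 to 0.38 with thinning before summing, 1.17 with thinning before the rule and 2.47 without mixed barcodes. They turned for *Col1a1* against sinusoidal cells to -3.58 with at least 3 arterial genes and -0.90 with thinning before the rule, and for *Hbb-bs* to -0.75 without mixed barcodes. Signs also changed over the alternatives for values that passed no test at the reported setting, with ranges of -1.54 to 3.73 for *Col1a1* and -0.13 to 2.34 for *Mgp* over capillary cells, and of -4.84 to 0.62 and -2.20 to 1.55 for *Col2a1* over capillary and sinusoidal cells. Folds of genes near 0 UMIs in a class could move by more than 1.5 times, that of *Gpr182* over sinusoidal cells from -12.37 to -5.65 with thinning before the rule. The cause was not tested. Of the list genes described, *Hes1*, *Col4a1* and *Col4a2* against capillary cells lost the call with no replicate block. *Vcam1* and *Sele* against capillary cells lost it with DESeq2 and with thinning before the rule, as did *Notch1* against sinusoidal cells, and *Klf4* and *Junb* against capillary cells lost it with thinning before the rule. *Ephb4* against capillary cells and *Dll1* against sinusoidal cells were lower under some settings. With a single replicate, log2 fold changes over capillary cells were 3.52 and 5.25 for *Bmp6*, 4.53 and 3.45 for *Tgfb2*, 2.32 and 3.54 for *Tcf15*, -3.53 and -4.99 for *Ptgs1* and 0.44 and 1.67 for *Vcam1*. The arterial sums held 477271 to 692169 UMIs, and with no filter on low counts 21307 genes were tested in place of 11039.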
